A study of Mus musculus with 19 samples.

Results

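The platelet-derived growth factor (PDGF) family was followed in obstructed mouse kidneys through 6 genes, chosen by name among the 54532 genes of the count table. They were the 4 ligand genes Pdgfa, Pdgfb, Pdgfc and Pdgfd and the 2 receptor genes Pdgfra and Pdgfrb. All 6 passed the filter on low counts in every comparison. The 19 mice were males on a C57BL/6J background, 8 to 9 weeks old, and in each of them the left ureter was tied off (unilateral ureteral obstruction, UUO), so that the ligated kidney could be taken on day 12. Of the WT mice 5 received PBS and 5 received rCD5L, and of the CD5L KO mice 4 received PBS and 5 received rCD5L. The recombinant protein rCD5L or an equal volume of PBS was injected into the peritoneum daily, with 0.5 mg of rCD5L per mouse. CD5L is a protein that macrophages secrete into the blood, and CD5L KO mice lack it. Every kidney was perfused with heparin and every mouse was obstructed, so the values describe injured kidneys only, without a sham-operated reference.

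PDGF ligands are secreted dimers of the A, B, C or D chain, and they signal through the receptor tyrosine kinases PDGFRα and PDGFRβ. PDGF-C and PDGF-D leave the cell in a latent form that proteases activate by removing their CUB domain. In the kidney the receptors are carried mainly by pericytes, fibroblasts, mesangial cells and vascular smooth muscle, while endothelial cells, platelets, macrophages and injured tubules are known sources of ligand. Signalling through PDGFRβ drives the growth of pericytes and mesangial cells, and both receptors are used to mark the cells that lay down matrix in fibrosis.

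On GRCm38, Pdgfa (ENSMUSG00000025856) lies at chr5:138976014-138997370 and Pdgfb (ENSMUSG00000000489) at chr15:79995874-80014977, both on the minus strand. Pdgfc (ENSMUSG00000028019) lies at chr3:81036416-81214040 and Pdgfd (ENSMUSG00000032006) at chr9:6168584-6378850, both on the plus strand. Pdgfra (ENSMUSG00000029231), at chr5:75152292-75198215, is also on the plus strand. The counted exons of Pdgfra sum to 10024 bases, the longest of the 6, and those of Pdgfa to 3119 bases, the shortest. Pdgfrb overlaps no other annotated gene. Each of the other 5 overlaps at least 1 gene on the opposite strand (Pdgfra overlaps Gm42802 and Gm42803, Pdgfd overlaps Ddi1), and reads of the partners could not be told apart where counting ignored strand.

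The bases before the start of a gene hold its promoter, and RefSeq promoter windows (GRCm38.p6) were at hand for 4 of the 6 genes. The 250 bases before the RefSeq start are shown for the receptor gene whose level differed most between genotypes and for both latent ligands, each read 5′ to 3′ on the plus strand. They lie at chr5:75152001-75152250 (Pdgfra), chr3:81036166-81036415 (Pdgfc) and chr9:6168236-6168485 (Pdgfd). Capitals mark any match to 4 motifs searched on both strands, namely the AP-1 site TGANTCA, the antioxidant response element core TGACNNNGC to which Nrf2 binds, the GC box GGGCGG and the TATA box TATAAA.
Pdgfra: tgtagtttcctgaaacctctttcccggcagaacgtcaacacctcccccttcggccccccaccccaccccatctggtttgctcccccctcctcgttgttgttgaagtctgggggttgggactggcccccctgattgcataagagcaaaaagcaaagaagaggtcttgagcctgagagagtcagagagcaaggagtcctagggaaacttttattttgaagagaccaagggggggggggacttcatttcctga
Pdgfc: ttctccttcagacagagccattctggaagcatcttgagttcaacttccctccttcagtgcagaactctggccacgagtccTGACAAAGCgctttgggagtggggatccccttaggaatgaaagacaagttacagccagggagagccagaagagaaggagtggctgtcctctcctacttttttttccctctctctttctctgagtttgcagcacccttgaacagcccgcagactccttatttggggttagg
Pdgfd: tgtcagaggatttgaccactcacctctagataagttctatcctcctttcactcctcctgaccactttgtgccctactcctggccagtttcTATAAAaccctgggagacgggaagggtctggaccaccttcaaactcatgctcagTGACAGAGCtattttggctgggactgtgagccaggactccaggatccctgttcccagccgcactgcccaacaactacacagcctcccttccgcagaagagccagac
The Pdgfra window held none of the 4 letter patterns. The Pdgfc window held 1 antioxidant response element core, 170 bases before the start, and the Pdgfd window held 1 at 106 bases and a TATA box at 160 bases before it. No matches overlapped. Of the same 250 bases before 32851 RefSeq starts, 10.2% held the antioxidant response element core, 12.4% the TATA box, 32.7% the GC box and 6.75% the AP-1 site, so the matches are common letters and not shown to be sites.

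Total counts per kidney ran from 17917491 to 23847090. The 6 genes were well counted, from 284 counts (Pdgfa) to 7031 counts (Pdgfra) in single kidneys. Cd5l, the deleted gene, had 0 counts in all CD5L KO kidneys (which allows up to 3 counts) and 3 to 15 counts in WT kidneys. CD5L KO kidney 4 given rCD5L stood apart from the rest. Its summed markers were the lowest of the 19 for pericytes, mesangial cells, fibroblasts, myofibroblasts, macrophages, platelets, podocytes and injured and failed-repair tubules. Its proximal tubule markers, at 13641 CPM (counts per 1000000 of the TMM-scaled library), were the highest, as were its loop of Henle and distal tubule markers (5762 CPM). CD5L KO kidney 3 given rCD5L had the highest Pdgfrb and Pdgfb and the lowest Pdgfd of all kidneys. Fold changes and correlations within genotypes that rest on these kidneys are given with and without them. The genes nearest to each member were sought again without kidney 4 only.

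Levels of different genes were compared as FPKM, which divides counts by gene length. Over the 19 kidneys, Pdgfrb was highest at 29.7 ± 6.87 FPKM (SD, n = 19), followed by Pdgfb at 27.6 ± 5.90, Pdgfra at 18 ± 5.04, Pdgfa at 13.0 ± 2.14, Pdgfd at 12.6 ± 2.0 and Pdgfc at 3.74 ± 0.42. Neighbours in this order were compared within kidneys by permutation tests, adjusted over 5 comparisons. Pdgfrb exceeded Pdgfb in 14 of 19 kidneys, a mean log2 FPKM difference of 0.10 that did not pass (adjusted p = 0.166, two-sided permutation test). Pdgfa and Pdgfd did not differ beyond their spread either (higher Pdgfa in 10 of 19 kidneys, adjusted p = 0.684, permutation test). Pdgfb exceeded Pdgfra in 18 of 19 kidneys, Pdgfra exceeded Pdgfa in 16, and Pdgfd exceeded Pdgfc in 19, and all 3 of these steps passed (adjusted p = 5e-05, 8.5e-04 and 5e-05, permutation tests). The 3 kidneys with more Pdgfa than Pdgfra were all from CD5L KO mice, where mean FPKM of Pdgfra and Pdgfa were 14.6 and 13.6 with PBS and 12.7 and 12.6 with rCD5L, against 20.9 and 12.8 and 23.0 and 13.1 in the WT groups. In both WT groups the 6 genes stood in the same order of mean FPKM, with Pdgfrb first. In both CD5L KO groups the mean of Pdgfb stood first, at 26 ± 2.54 FPKM (SD, n = 4) against 23.4 ± 2.16 for Pdgfrb with PBS. With rCD5L the means were 29.2 ± 11.1 and 27.6 ± 9.91 FPKM (SD, n = 5). The ranges of the 2 genes overlapped in both CD5L KO groups (23.1 to 28.7 against 21.5 to 26.1 FPKM, and 13.2 to 43.3 against 15.1 to 42.1 FPKM). The order within a group was not tested.

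The comparison of CD5L KO with WT mice, both given PBS, asks what the absence of CD5L changes in the obstructed kidney. Both receptor transcripts were lower in CD5L KO kidneys, by 29.4% for Pdgfra and 25.0% for Pdgfrb, and none of the 4 ligand transcripts passed the test. Thus 2 of the 6 genes were called, both lower, where 10.5% of the 17579 genes tested were called and 5.40% were called lower. A gene was called where edgeR's quasi-likelihood test gave it a p-value under 0.05 after Benjamini-Hochberg adjustment over all genes tested.

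Pdgfra encodes the receptor that binds the A, B and C chains and marks kidney fibroblasts. It had 268, 246, 254, 259 and 245 CPM in the 5 WT kidneys given PBS, and 197, 192, 158 and 174 CPM in the 4 CD5L KO kidneys. All 4 CD5L KO kidneys lay below every WT kidney, an order that 6.75% of all genes tested showed in this direction. The means were 180.2 ± 18 CPM (SD, n = 4) against 254 ± 9.62 CPM (SD, n = 5), a log2 fold change of -0.50 (SE 0.0695, adjusted p = 0.0047 from edgeR).

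Pdgfrb (ENSMUSG00000024620, chr18:61045150-61085061 on the plus strand) encodes the receptor for the B and D chains on pericytes, mesangial cells and vascular smooth muscle. It had 195, 212, 201, 230.5 and 208 CPM in the WT kidneys given PBS, and 163, 176, 147 and 144 CPM in the CD5L KO kidneys. Again no CD5L KO kidney reached the lowest WT kidney. The means were 158 ± 14.9 CPM (SD, n = 4) against 209 ± 13.4 CPM (SD, n = 5), a log2 fold change of -0.42 (SE 0.0721, adjusted p = 0.00677 from edgeR). Both receptor calls were kept in 17 of 18 alternatives. They were lost in a single fit to all 19 kidneys, with adjusted p-values of 0.30 for Pdgfra and 0.402 for Pdgfrb, a fit in which 12 genes were called in all. The number of called genes fell from 1850 to between 1015 and 1215 without CD5L KO kidney 1 or 2 or WT kidney 2 or 4 given PBS, and both receptors stayed called each time.

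**Figure D1:**
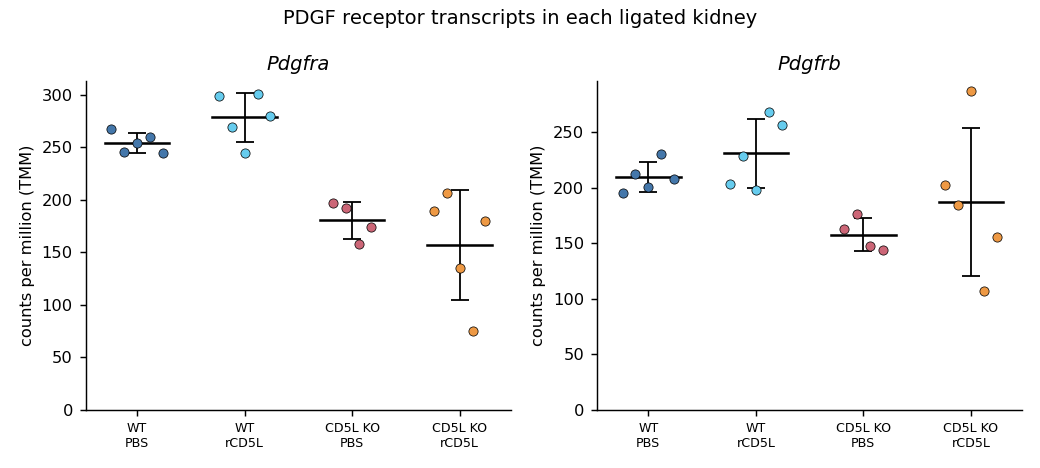
Pdgfra (left) and Pdgfrb (right) in TMM-scaled CPM (vertical axis) for each kidney of the 4 groups. Points are kidneys, wide bars are means and whiskers are 1 SD. The 9 CD5L KO kidneys reach at most 206 CPM of Pdgfra and the 10 WT kidneys at least 244 CPM, while Pdgfrb of CD5L KO kidney 3 given rCD5L, at 287 CPM, is the highest of all.

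Among the ligands, Pdgfd, whose product binds PDGFRβ, came nearest to a call. It had 49.2, 50.8, 47.1, 41.8 and 47.8 CPM in WT kidneys given PBS and 62.3, 54.4, 56.4 and 50.1 CPM in CD5L KO kidneys, and 3 of the 4 CD5L KO kidneys lay above every WT kidney. The log2 fold change was 0.23 (SE 0.0739), which did not pass (adjusted p = 0.0687 from edgeR). It passed in 3 of 18 alternatives. They were DESeq2 (adjusted p = 0.0375, with 17.8% of the 14437 genes it gave an adjusted p called), the replicate number as a block (0.0359) and leaving out CD5L KO kidney 4 given PBS (0.0438).

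Pdgfa, whose chain binds PDGFRα, had 44.2 to 52.8 CPM (median 48.4) in WT kidneys and 50.2 to 53.0 CPM in CD5L KO kidneys, a log2 fold change of 0.10 (adjusted p = 0.327 from edgeR). Pdgfb, the chain that binds both receptors, had 113 to 145 CPM in WT and 118 to 146 CPM in CD5L KO kidneys, a log2 fold change of 0.02 (adjusted p = 0.883). For Pdgfc, whose activated form binds PDGFRα, the values were 21 to 30.5 CPM and 22.0 to 25.1 CPM, a log2 fold change of -0.09 (adjusted p = 0.629). The ranges of the genotypes overlapped for all of these 3 genes. The approximate 95% interval of the log2 fold change was -0.02 to 0.22 for Pdgfa, -0.14 to 0.19 for Pdgfb and -0.28 to 0.11 for Pdgfc, so a fall of the size of the receptors' lay outside each.

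**Figure D2:**
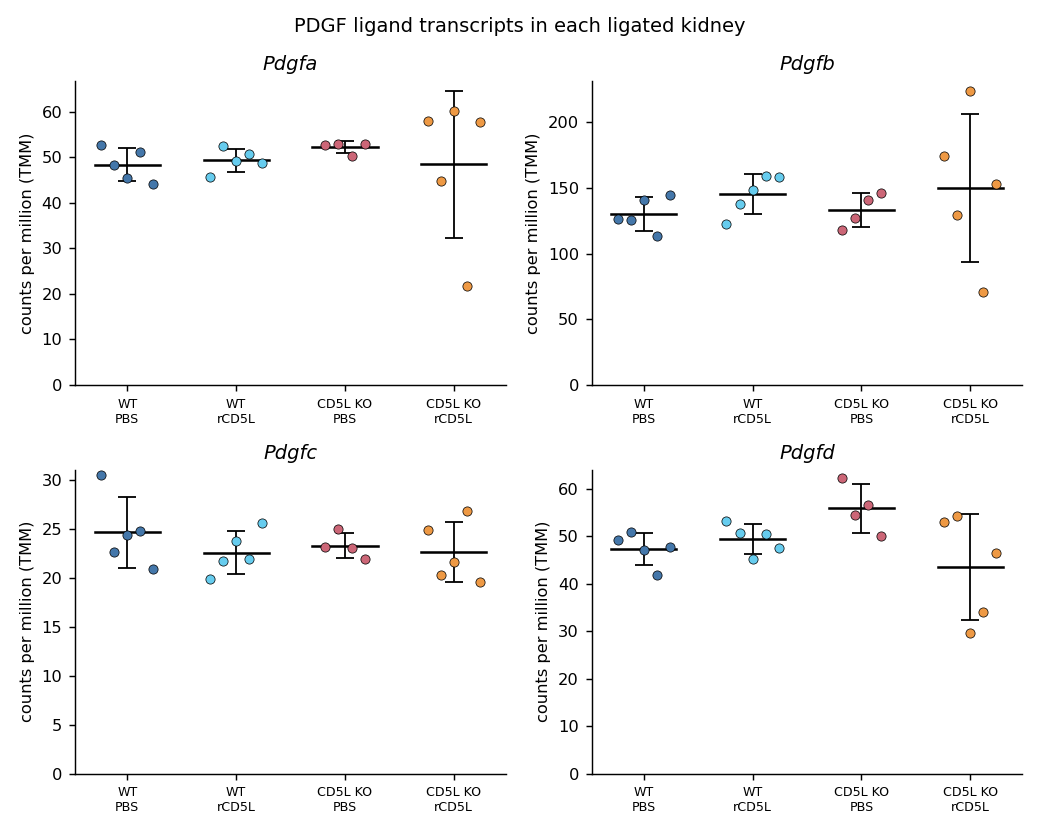
The 4 ligand genes in TMM-scaled CPM (vertical axes, each from 0) for each kidney of the 4 groups, with wide bars for means and whiskers for 1 SD. The groups overlap for every ligand when CD5L KO and WT kidneys given PBS are compared, and CD5L KO kidney 4 given rCD5L is the lowest for Pdgfa (21.8 CPM) and Pdgfb (71.1 CPM).

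Ligand counts were also set against the counts of a receptor within each kidney, a comparison chosen after the values were seen. Pdgfa counts per Pdgfra count were 0.179 to 0.198 in WT kidneys and 0.268 to 0.318 in CD5L KO kidneys given PBS, a log2 difference of 0.61. Pdgfb counts per Pdgfrb count were 0.492 to 0.702 and 0.722 to 1.01, a log2 difference of 0.44. Both ratios lay above the WT range in all 4 CD5L KO kidneys. They are given without a test, since the receptor in each denominator had already been called lower and they restate that difference beside ligands that were not called. Pdgfra counts per Pdgfrb count differed by -0.09 on the log2 scale, within the spread (two-sided exact permutation test, p = 0.238, adjusted p = 0.429 over 9 tests).

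Some markers of the cells that carry the receptors were called lower in the same kidneys. In CD5L KO kidneys given PBS, 3 of 9 pericyte and smooth muscle markers were called lower (Notch3, Abcc9 and Mcam), and the summed level ran from 417 to 577 CPM against 482 to 704 CPM in WT. Of the myofibroblast markers, 4 of 7 were called lower (Acta2, Col1a1, Col3a1 and Fn1), with sums of 2243 to 3070 CPM that did not overlap the 3292 to 5289 CPM of WT kidneys. The call was made lower for 1 of 4 mesangial markers (Itga8, log2 fold change -0.71) and 1 of 9 fibroblast markers (Fbln2), whose sums overlapped between genotypes (358 to 459 against 377 to 484 CPM, and 981 to 1321 against 1036 to 1499 CPM). The mesangial list had a median log2 fold change of 0.09, with Ptn (51.0 against 41.7 CPM on average) and Gata3 (26.5 against 20.6 CPM) above WT but not called, and 3 of the 9 fibroblast markers were also above WT.

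Markers of cells known to make ligand were called lower in part, and those of injured tubules not at all. Of 8 endothelial markers, 4 were called lower (Pecam1, Cdh5, Plvap and Tie1), with sums of 711 to 797 CPM against 848 to 965 CPM. Of 8 macrophage markers only Csf1r was called lower, with sums of 1791 to 2927 CPM against 1982 to 2591 CPM, and of 5 podocyte markers only Wt1 (517 to 595 against 580 to 685 CPM). None of the 4 platelet markers tested was called (sums 23.8 to 38.4 against 24.1 to 48.1 CPM). Of 8 markers of injured and failed-repair tubules, 7 had a positive log2 fold change (median 0.14) and 0 were called, with sums of 2181 to 2470 CPM against 1853 to 2247 CPM. In all, 15 of 94 markers were called, each lower, which is 16.0% beside the 5.40% of all genes called lower. The tubular, urothelial, red blood cell and epididymis markers gave 0 calls, although the urothelial sum was higher in all CD5L KO kidneys (225 to 359 against 26.4 to 184 CPM). Among the listed markers, only the platelet receptor gene Gp6 was at 0 in every kidney of a group (WT given PBS). The part of these markers in the receptor result was not tested, and in whole-kidney RNA fewer cells of a type and less RNA per cell cannot be told apart.

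The same genotype contrast could be read a second time in the mice given rCD5L, a comparison added after the values were seen. It uses different kidneys of both genotypes. Pdgfra had 298, 269, 244, 301 and 279 CPM in WT kidneys given rCD5L and 189, 206, 135, 75.4 and 179.9 CPM in CD5L KO kidneys given rCD5L. All 5 CD5L KO kidneys lay below every WT kidney, as was the case for 2.90% of the 17360 genes tested. The log2 fold change was -0.85 (SE 0.230), with an unadjusted p of 0.0034 and an adjusted p of 0.259 from edgeR, so it was not called. With only these 2 groups in the fit, 0% of genes were called by edgeR. At an unadjusted p under 0.05 there were 3090 genes (17.8%) and 1 of the 6 members. DESeq2 called 64 genes (0.387% of the 16528 it gave an adjusted p) and 0 members. An alternative chosen after the values were seen left out CD5L KO kidneys 3 and 4 given rCD5L. The log2 fold change of Pdgfra was then -0.55 (SE 0.0774, adjusted p = 0.010 from edgeR) and 644 genes were called. Kidney 3 had been singled out by its Pdgfrb, Pdgfb and Pdgfd values, so the smaller SE and the call depend on that choice.

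The cell type markers of these kidneys gave 0 calls among 94 by edgeR, and 21 had an unadjusted p under 0.05. Log2 fold changes lay below 0 for 9 of 9 fibroblast markers (median -0.37), 4 of 4 mesangial markers (-0.59), 7 of 7 myofibroblast markers (-0.53) and 9 of 9 pericyte and smooth muscle markers (-0.22). They also lay below 0 for 8 of 8 macrophage markers (-0.26), 5 of 5 podocyte markers (-0.38) and 7 of 8 endothelial markers (-0.20). Above 0 were 7 of 7 proximal tubule markers (1.47) and 5 of 5 markers each of loop of Henle and distal tubule (0.28), collecting duct (0.67) and urothelium (0.41). The remaining lists were mixed, and 48.9% of all genes tested lay above 0. Fibroblast sums were 442 to 1265 CPM in CD5L KO against 1067 to 1509 CPM in WT kidneys given rCD5L, and proximal tubule sums 1270.1 to 13641 against 949.7 to 1466 CPM. In the 3 CD5L KO kidneys other than 3 and 4 the sums were 925 to 1241 CPM for fibroblasts and 1270.1 to 1368 CPM for proximal tubules. The part of these markers in the Pdgfra difference was not tested.

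Pdgfrb did not separate the genotypes under rCD5L. It had 204, 228, 198, 268 and 256 CPM in WT kidneys and 202, 184, 287, 107 and 155 CPM in CD5L KO kidneys, a log2 fold change of -0.33 (SE 0.216, adjusted p = 0.415 from edgeR). Without kidneys 3 and 4, of which kidney 3 was singled out in part by its high Pdgfrb, it was -0.37 (SE 0.108, adjusted p = 0.0746). Over both treatments, every one of the 9 CD5L KO kidneys had less Pdgfra (at most 206 CPM) than any of the 10 WT kidneys (at least 244 CPM), an order shown by 0.488% of the 18454 genes in this direction. None of the other 5 genes had it. For the ligands, the log2 fold changes under rCD5L were -0.05 (Pdgfa), 0.02 (Pdgfb), -0.02 (Pdgfc) and -0.20 (Pdgfd), with adjusted p-values of 0.521 to 0.965.

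**Figure D3:**
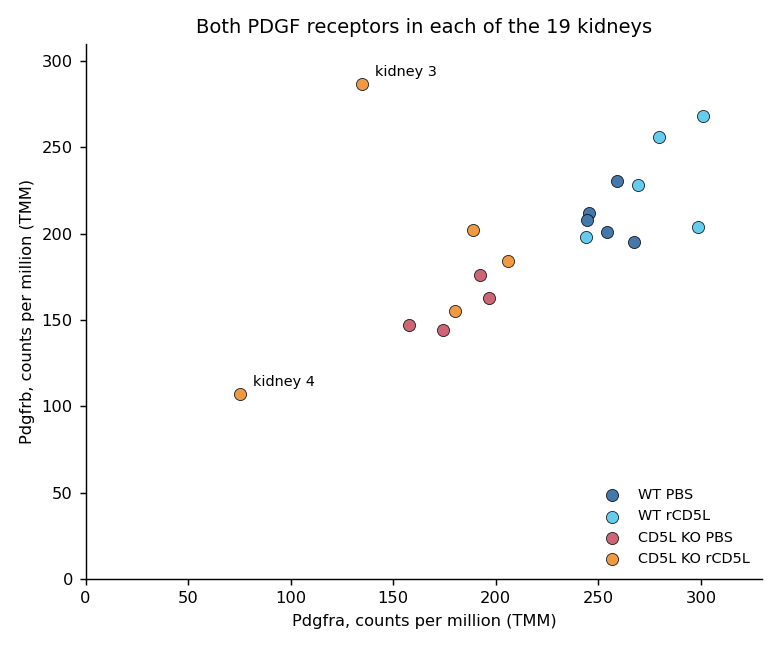
Pdgfra (horizontal axis) against Pdgfrb (vertical axis) in TMM-scaled CPM, 1 point for each of the 19 kidneys, coloured by group. WT kidneys lie at 244 CPM of Pdgfra or more and CD5L KO kidneys at 206 CPM or less, and CD5L KO kidneys 3 (135 and 287 CPM) and 4 (75.4 and 107 CPM) given rCD5L lie away from the others.

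The comparison of rCD5L with PBS in CD5L KO mice asks what giving the protein back changes, and none of the 6 genes was called (0% of 17467 genes were). At an unadjusted p under 0.05 there were 502 genes (2.87%) and 0 of the 6 members. DESeq2 called 3 genes (0.00973% of the 30845 genes it gave an adjusted p) and again 0 members. The log2 fold changes were -0.11 for Pdgfa, 0.16 for Pdgfb, -0.05 for Pdgfc, -0.37 for Pdgfd, -0.20 for Pdgfra and 0.24 for Pdgfrb. Adjusted p-values from edgeR were 0.897 to 0.956. The 5 kidneys given rCD5L varied widely, with a coefficient of variation of 33.5% for Pdgfra and 35.5% for Pdgfrb against 9.97% and 9.42% in the 4 kidneys given PBS. Kidneys 3 and 4 held much of this spread, and without both the coefficient was 6.94% for Pdgfra and 13.1% for Pdgfrb.

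Single members showed how far these kidneys lay from the rest. Pdgfd had 53.0, 54.3, 29.6, 34.0 and 46.5 CPM in CD5L KO kidneys given rCD5L, so kidneys 3 and 4 lay below every other kidney of the study. Pdgfb had 174, 129, 224, 71.1 and 153 CPM there, with kidney 3 the highest and kidney 4 the lowest of the 19. Pdgfc went another way, with its highest value of the group in kidney 4 (26.8 CPM, the others 19.6 to 25.0 CPM). Without kidneys 3 and 4, the log2 fold change of Pdgfra under rCD5L turned from -0.20 to 0.091 and that of Pdgfa from -0.11 to 0.037. That of Pdgfd shrank from -0.37 to -0.12 (mean 51.3 CPM in the 3 kidneys left against 55.8 CPM with PBS). Pdgfb had 0.19, Pdgfrb 0.20 and Pdgfc -0.11 without them, and none of the 6 was called.

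In WT mice, rCD5L against PBS gave no call among the 6 genes either (0% of 17455 genes were called by edgeR, and 39 genes without WT kidney 1 given PBS). At an unadjusted p under 0.05 there were 2797 genes (16.0%) and 1 of the 6 members, Pdgfra. DESeq2 called 508 genes (3.82% of the 13314 it gave an adjusted p) and 0 members. Pdgfra lay above every WT kidney given PBS in 4 of the 5 kidneys given rCD5L, with means of 278 ± 23.3 CPM (SD, n = 5) against 254 ± 9.62 CPM (SD, n = 5). Its log2 difference of 0.14 had an unadjusted p of 0.0323 and did not pass (adjusted p = 0.260 from edgeR). The log2 differences were 0.15 for Pdgfrb (adjusted p = 0.383) and 0.17 for Pdgfb (adjusted p = 0.331), and -0.12 to 0.07 for the other 3 ligands. Over the 10 WT kidneys the ligands ran from 41.8 to 53.2 CPM for Pdgfd, 44.2 to 52.8 CPM for Pdgfa, 113 to 159 CPM for Pdgfb and 19.9 to 30.5 CPM for Pdgfc.

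Whether rCD5L acted differently in the genotypes was tested as an interaction over all 19 kidneys, and none of the 6 genes was called (0% of 18454 genes by edgeR and 0 by DESeq2). At an unadjusted p under 0.05 there were 1154 genes (6.25%) and 1 of the 6 members. That member was Pdgfd, whose log2 change under rCD5L was 0.42 lower in CD5L KO than in WT mice (SE 0.193, unadjusted p = 0.0425, adjusted p = 0.731). For Pdgfra it was 0.33 lower and for Pdgfrb 0.11 higher (adjusted p = 0.772 and 0.931). Without CD5L KO kidneys 3 and 4 given rCD5L, the interaction was -0.18 for Pdgfd (adjusted p = 0.965 from edgeR), -0.045 for Pdgfra and 0.050 for Pdgfrb.

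**Figure D4:**
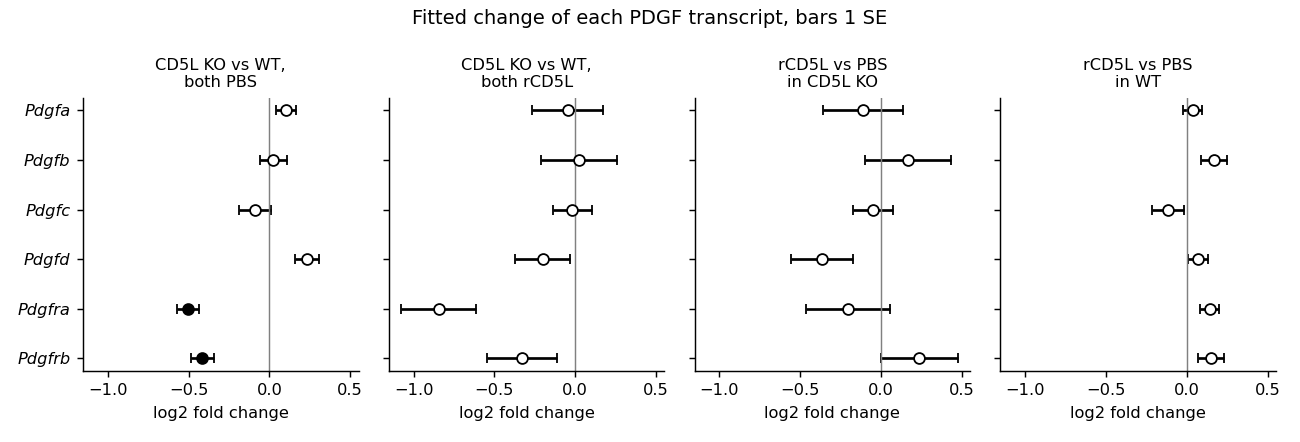
Log2 fold change (horizontal axes) of the 6 genes in 4 comparisons of 2 groups, with bars of 1 SE from edgeR. Filled points have an adjusted p under 0.05, which is the case for Pdgfra (-0.50) and Pdgfrb (-0.42) in CD5L KO against WT kidneys given PBS, and open points do not.

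How the 6 genes varied together was examined over kidneys as log2 CPM, with 15 pairs and adjustment over them. Pdgfra splits the kidneys by genotype, so pairs were read within each genotype. Over the 10 WT kidneys no pair passed (Pdgfra with Pdgfrb r = 0.55, rho = 0.52, adjusted permutation p = 0.737 and 0.762). Over the 9 CD5L KO kidneys 1 pair passed, Pdgfa with Pdgfb (r = 0.88, adjusted exact permutation p = 0.0191, and rho = 0.82, adjusted exact permutation p = 0.162). Without kidney 4 given rCD5L it did not pass (r = 0.72, adjusted exact permutation p = 0.138), and without kidneys 3 and 4 r was 0.61 (adjusted exact permutation p = 0.728, 7 kidneys). Pdgfra with Pdgfrb had r = 0.42 over CD5L KO kidneys and -0.48 without kidney 4 (adjusted exact permutation p = 0.360 and 0.383). Without kidneys 3 and 4 both, r was 0.70 and rho 0.71 over the 7 kidneys left (adjusted exact permutation p = 0.728 and 0.589).

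Genes whose log2 CPM followed a member most closely over the 19 kidneys were sought among 15686 genes, as a description that all kidneys, the 4 groups and kidney 4 given rCD5L feed into. For Pdgfrb they were Mrc2, a receptor that takes up collagen (r = 0.99), P3h1, an enzyme that hydroxylates collagen prolines (r = 0.98), and the basement membrane collagen gene Col15a1 (r = 0.97). Without kidney 4 Mrc2 and P3h1 still ranked first and second. For Pdgfra they were Plekhm3 (r = 0.98), Rerg (r = 0.97) and Stard9 (r = 0.96), and without kidney 4 Itga8, the integrin chain of mesangial cells and fibroblasts, ranked first (r = 0.97).

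The ligands followed other genes. Pdgfb was nearest to Nfkb2, a subunit of NF-κB (r = 0.94), Trim47 (r = 0.94) and Efhd2 (r = 0.93), and Pdgfa to Ddah2, an enzyme of methylarginine breakdown (r = 0.97), Tnfrsf9 (r = 0.96) and Cmtm3 (r = 0.95). Pdgfd was nearest to Sh3bgrl (r = 0.93), Zfp51 and Zfp1 (both r = 0.92). Pdgfc had the weakest neighbours, B330016D10Rik (r = 0.73), Mxi1 (r = 0.70) and Unc5c (r = 0.68). Of these 12 names, Ddah2 alone kept first rank without kidney 4, where r was 0.86.

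The wider pathway was read through 63 genes in 5 roles. In CD5L KO against WT kidneys given PBS, 13 of them were called, 11 lower and 2 higher, which is 20.6% of the list beside 10.5% of all genes. Its median log2 fold change was -0.04, and that of all genes -0.0046. The list had 8 called genes without CD5L KO kidney 1 given PBS or with a gene length offset, and 0 in the single fit to all 19 kidneys. Genes whose products bind PDGF or act with its receptors were called lower in 3 of 4 cases. Sparc, a matrix protein that binds PDGF-B, had 1223 ± 99.5 CPM (SD, n = 4) in CD5L KO and 1808 ± 256 CPM (SD, n = 5) in WT, with a log2 fold change of -0.57 (adjusted p = 0.0072 from edgeR). Lrp1, an endocytic co-receptor of PDGFRβ, had 221 ± 18.6 against 317 ± 36 CPM (log2 fold change -0.53, adjusted p = 0.0063). Cspg4, the NG2 proteoglycan of pericytes, fell by 0.29 on the log2 scale, and the co-receptor Nrp1 had -0.18 without passing.

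Downstream of the receptors, 5 of 31 adaptors and effectors were called, all lower, which is 16.1% beside the 5.40% of all genes called lower. They were the phospholipase Plcg1, the transcription factors Stat3 and Stat5b, the kinase Fyn and the docking protein Gab1, with log2 fold changes of -0.36 to -0.18, while the RAS, RAF, MEK, ERK, AKT and PI3K genes of the list gave 0 calls. Of 14 negative regulators, 3 were called lower, namely Spry4 (-0.39, adjusted p = 0.0375), the ubiquitin ligase Cbl and the phosphatase Ptprj, and the phosphatase Acp1 was called higher (0.26), which is 28.6% of the role beside 10.5% of all genes. Among 8 early response genes 1 was called, which is 12.5% of the role and near the 10.5% of all genes. It was Ccl2, the monocyte chemokine first found as a PDGF-induced transcript, with 47.6 ± 6.31 against 29.7 ± 3.69 CPM (log2 fold change 0.67, adjusted p = 0.0057 from edgeR, higher). The 6 genes of ligand activation, which include the proteases Plat, Plau and Furin, gave 0 calls (log2 fold changes -0.27 to 0.17). So few genes cannot be told from the 10.5% of all genes.

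**Figure D5:**
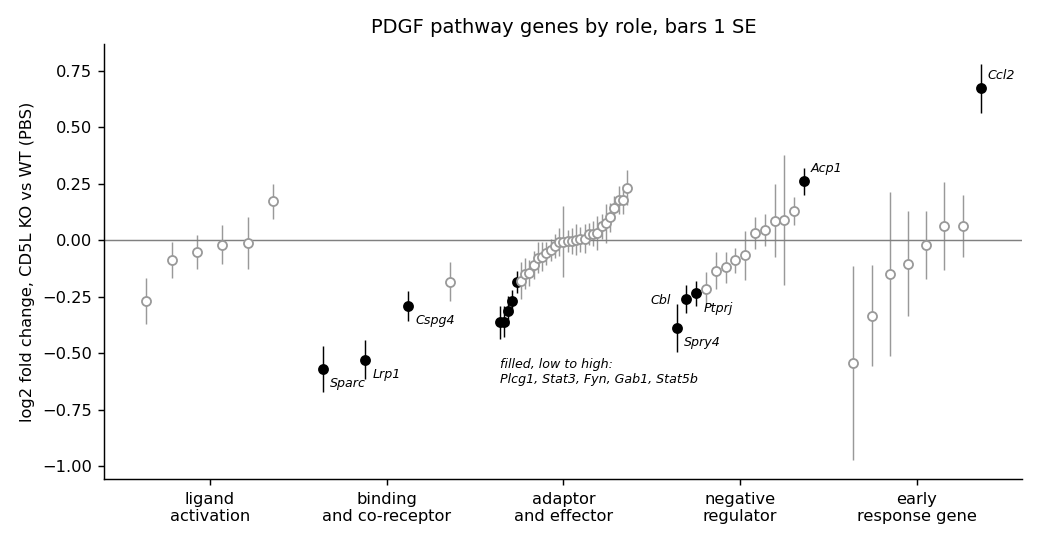
Log2 fold change in CD5L KO against WT kidneys given PBS (vertical axis) of 63 PDGF pathway genes, grouped by role (horizontal axis) and sorted within a role, with bars of 1 SE from edgeR. Filled points have an adjusted p under 0.05, which is the case for 3 of 4 binding and co-receptor genes (-0.57 to -0.29) and for 0 of 6 ligand activation genes.

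The nearest relatives of the PDGF system were read in the same way, through 15 VEGF and class III receptor kinase genes and their ligands. In CD5L KO kidneys given PBS, 4 receptors were called lower and 0 genes higher, which is 26.7% of the 15 beside the 5.40% of all genes called lower. They were Csf1r, the macrophage colony-stimulating factor receptor (log2 fold change -0.47, adjusted p = 0.0386 from edgeR), the lymphatic VEGF receptor Flt4 (-0.42, adjusted p = 0.0448), Kit (-0.36, adjusted p = 0.0073) and Flt1 (-0.34, adjusted p = 0.0451). None of the 9 ligand genes of this list was called. The median of the 15 was -0.28.

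In the other comparisons neither list had a called gene in the edgeR fits used above, although some alternatives called pathway genes, as given below. The names given are those with the smallest unadjusted p. Under rCD5L in CD5L KO mice they were Fos (log2 fold change -0.90, adjusted p = 0.897 from edgeR) and Gab1 (0.22, adjusted p = 0.897) of the pathway, and Vegfd (-0.23) and Vegfc (0.24) of the relatives. Under rCD5L in WT mice they were Cbl (0.21, adjusted p = 0.110) and Pik3r1 (0.23, adjusted p = 0.117), and Csf1 (0.25, adjusted p = 0.144) and Vegfc (0.28, adjusted p = 0.281). Between genotypes given rCD5L they were Hras (0.60) and Egr1 (-0.54), and Kit (-0.65) and Vegfd (-0.39), each with an adjusted p of 0.259. For the interaction they were Gab1 (0.23) and Hras (0.44), and Vegfb (0.27) and Kit (-0.28), each with an adjusted p of 0.731.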

How the data were processed

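RNA of whole obstructed kidneys was measured by bulk RNA-seq in 19 mice. The authors trimmed paired-end reads of random-primed libraries with Trimmomatic, used HISAT2 for the alignment to GRCm38 and featureCounts for the counting. Versions, strand setting and the treatment of reads matching several places are not given in the sources used here. The authors deposited raw counts per gene and FPKM values for 54532 genes. Gene coordinates in the deposited files matched GENCODE M21 for all 6 members. Groups and replicate numbers came from the sample labels, and nothing in the labels names a batch. Every 2 kidneys of a group differed beyond sampling noise (chi-square over its degrees of freedom at least 7.07), so none was the same library deposited again.

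The quasi-likelihood test of edgeR 4.0.16 (R 4.3.3) was run on the counts after filterByExpr (minimum count 10) and TMM scaling, with only the 2 groups compared in a fit and all 19 kidneys in the interaction, and p-values were adjusted over all genes tested (Benjamini-Hochberg, threshold 0.05). Single values were compared by two-sided permutation tests, with 100000 resamples or exact. The alternatives were RLE factors, DESeq2 1.42.0, other filters, a shared fit, the replicate block, a gene length offset (lowess span 0.3), limma 3.58.1 on log2(FPKM + 1) or log2(FPKM + 0.1), and leaving out each kidney. Log2 CPM used a prior count of 2. The limit beside a count of 0 covers counting error only, and intervals of log2 fold changes rest on edgeR's SE, which includes the spread between kidneys. The scripts were tested on simulated data.

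The members and gene lists were chosen with earlier results of these data known. The text names the 6 members, the 3 genes most like each by Pearson r among genes with a mean of at least 1 CPM, and, per list and comparison, up to 4 called genes with the largest change or else the 2 with the smallest p. Cspg4, Plcg1, Stat3, Stat5b, Fyn, Gab1, Cbl, Ptprj, Acp1, Nrp1, Plat, Plau, Furin and the cell type markers are named beyond this rule, after their values were seen. The comparison of genotypes given rCD5L, the ratios and the correlations within genotypes were added after the values were seen.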

Additional observations from a re-analysis of the deposited data

Results flagged for a closer look

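Of 24 sets of values, 1 for each member in each group, 1 had a kidney far from the others of its group. Pdgfa in CD5L KO kidney 3 given PBS had 50.2 CPM, while the other 3 kidneys of that group had 52.7 to 53.0 CPM, so that the gap was 0.886 of the range. About 1 set in 20 passes this limit by chance, and the kidney lies within the range of WT kidneys given PBS (44.2 to 52.8 CPM).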

How the results depend on the processing

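The lower Pdgfra and Pdgfrb of CD5L KO kidneys given PBS kept their direction in all 18 alternatives and their call in 17. With all 19 kidneys in 1 fit, 0 members, 0 pathway genes and 12 genes in all were called there, and 1 member (Pdgfra), 3 pathway genes and 1291 genes between the genotypes given rCD5L. A gene length offset left 8 pathway genes called and both receptors (log2 fold changes -0.42 and -0.38). DESeq2 called 3 genes for rCD5L in CD5L KO mice, 508 genes and 2 pathway genes for rCD5L in WT mice, and 64 genes between the genotypes given rCD5L, and without a filter 137 genes were called for rCD5L in WT mice. Without CD5L KO kidneys 3 and 4 given rCD5L, an alternative chosen after seeing the data, 1 member (Pdgfra), 4 pathway genes and 644 genes were called between the genotypes given rCD5L.

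Leaving out 1 kidney gave 1015 to 2062 called genes and 8 to 14 called pathway genes for CD5L KO against WT given PBS. The count over all genes moved by more than 1.5 times without CD5L KO kidney 1 (1038 genes, 8 pathway genes) or 2 (1215) or WT kidney 2 (1121) or 4 (1015) given PBS. It gave 0 to 39 called genes for rCD5L in WT mice (39 without WT kidney 1 given PBS) and 0 to 1 between the genotypes given rCD5L (1 without CD5L KO kidney 2 given rCD5L).

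Some uncalled log2 fold changes changed sign. For CD5L KO against WT given PBS, leaving out 1 kidney gave -0.022 to 0.077 for Pdgfb and -0.14 to 0.0019 for Pdgfc. For rCD5L in CD5L KO mice it gave -0.20 to 0.078 for Pdgfa and -0.016 to 0.35 for Pdgfb, and without kidneys 3 and 4 the values were 0.037 for Pdgfa and 0.091 for Pdgfra. Between the genotypes given rCD5L it gave -0.12 to 0.14 for Pdgfa, -0.15 to 0.20 for Pdgfb and -0.084 to 0.029 for Pdgfc, and without kidneys 3 and 4 Pdgfa had 0.11 and Pdgfd 0.043. There, Pdgfc had 0.0029 with RLE factors, 0.00018 with DESeq2, 0.0032 with all kidneys in 1 fit and 0.049 with the length offset, and Pdgfb had -0.075 and -0.082 with limma on FPKM at a pseudocount of 1 and 0.1. For the interaction it gave -0.21 to 0.041 for Pdgfa, -0.17 to 0.18 for Pdgfb, -0.0050 to 0.14 for Pdgfc and -0.097 to 0.24 for Pdgfrb. Pdgfa had 0.0063 there without kidneys 3 and 4, and Pdgfb -0.0032 with at least 10 counts in every sample and -0.089 and -0.096 with limma. The cause of these changes was not tested.

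The replicate number as a block gave -0.054 for Pdgfb between the genotypes given rCD5L and -0.063 for the interaction, and called Pdgfd (0.23, adjusted p = 0.0359 from edgeR) beside both receptors in CD5L KO against WT given PBS. Same-numbered kidneys did not deviate together throughout (correlations of deviations -0.22 to 0.28, over 0.1 in 2 of 4, 3 of 4, 0 of 5 and 0 of 5 pairs, and 4 of 18 kidneys correlated best with their own number), so the numbers were not taken as pairs.

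Of the 15 pairs of members, 3 were correlated by Pearson's r over all 19 kidneys and 0 by Spearman's rho (lowest adjusted permutation p = 0.10). By r the number was 5 with group means removed (1 by rho), 0 in WT kidneys, 1 in CD5L KO kidneys, and 0 to 1 when kidneys were left out. The pair that passed both ways with group means removed was Pdgfd with Pdgfra (r = 0.70, rho = 0.71, adjusted permutation p = 0.00975 and 0.0165). Over CD5L KO kidneys this pair had r = 0.75, and 0.22 without kidneys 3 and 4 given rCD5L (adjusted exact permutation p = 0.135 and 0.924). Leaving out each group in turn, the step from Pdgfb to Pdgfra in FPKM passed all 4 times, and those from Pdgfra to Pdgfa and from Pdgfd to Pdgfc the 3 times that kept the order. Counts per kilobase cannot change a step within a kidney. Without the CD5L KO kidneys given rCD5L, Pdgfd and Pdgfa changed places, and without the CD5L KO kidneys given PBS the step from Pdgfrb to Pdgfb passed as well (adjusted permutation p = 0.0277). The lowest count of a member in a kidney was 284 (Pdgfa).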
